A study of Mus musculus with 12 samples.

Results

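The endothelial identity genes are 33 protein-coding genes that mark the cells lining blood vessels and the heart's chambers, taken by symbol from a list given for this series, out of 21887 protein-coding loci on the nuclear chromosomes. All 33 matched the gene table. A locus ran from 10 kb before the gene to 10 kb after it in mm10. Its H3K27ac level was taken as the length in bp covered by called peaks, summed per heart. This length does not record the strength of the mark inside a called region. H3K27ac, acetylation of histone H3 at lysine 27, marks active promoters and enhancers. ChIP-seq of the mark was done on single whole hearts of newborn mice (P0), 3 wild-type (WT), numbered 1, 3 and 4, and 3 lacking the retinoid X receptors RXRa and RXRb in cardiomyocytes only (edKO), numbered 1, 3 and 6. The driver of the cardiomyocyte-specific deletion is not given in the sources used here. As labelled, endothelial cells of edKO hearts keep both receptors. Each heart was 1 animal, and its chromatin came from all of its cell types. Fewer endothelial cells, less of the mark per cell and the mark of other cell types at these loci therefore cannot be told apart.

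Endothelial cells form the inner wall of vessels and, as endocardium, of the heart chambers. Their identity is held by transcription factors of the ETS, SOX F, basic helix-loop-helix and Kruppel-like families, which act on genes for junction proteins and for the receptors of VEGF, angiopoietin, BMP9 and apelin. Many regulatory regions of endothelial genes carry sites for ETS factors, whose core is GGAA.

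The 6 lists held between 47972 and 67708 distinct regions and covered between 47874433 bp (edKO 3) and 68260351 bp (WT 3) of the genome. Sequencing depth per heart is unknown, and a region missing from a list was not called, which does not show that the mark was absent. The edKO 3 heart had the lowest covered length at 22 of the 33 endothelial genes and the edKO 1 heart the highest at 18. Mean region length was 1387.7 bp in edKO hearts 1, the longest of the 6, and 991.7 bp in edKO hearts 3. To allow for these differences, log2(bp + 200) was centred per heart before genotypes were compared.

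Every endothelial locus, gene and flanks together, held called regions in every heart, and no endothelial gene passed the test between genotypes. All 33 loci passed the filter on low values, a mean of at least 500 bp. With limma adjusted over all 14317 loci tested, 0 endothelial genes were lower and 0 higher in edKO hearts, where 0.105% of all loci were lower and 0% higher. At an unadjusted p under 0.05, 0 were lower and 2 higher (Vwf and Tie1), where 4.63% of all loci were lower and 1.98% higher. The smallest limma adjusted p among the 33 was 0.735. The median log2 difference, edKO minus WT, was 0.08 over the endothelial genes (25 of 33 above 0) and 0.03 over all loci (58.4% above 0). With no centring, 16 of 33 endothelial genes and 35.7% of all loci were above 0. Differences ran from -0.20 at Pecam1 to 0.54 at Vwf, with standard errors between 0.087 and 0.258 on the log2 scale. In bp, the genotypes overlapped at all 33 loci, while 6.5% of all loci had each edKO heart below the WT hearts and 0.671% above them. After centring, all edKO hearts lay above all WT hearts at 3 loci (Tie1, Sox7 and Tal1), a pattern found at 7.11% of all loci, and below them at 0, where 5.76% of all loci had that pattern.

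**Figure D1:**
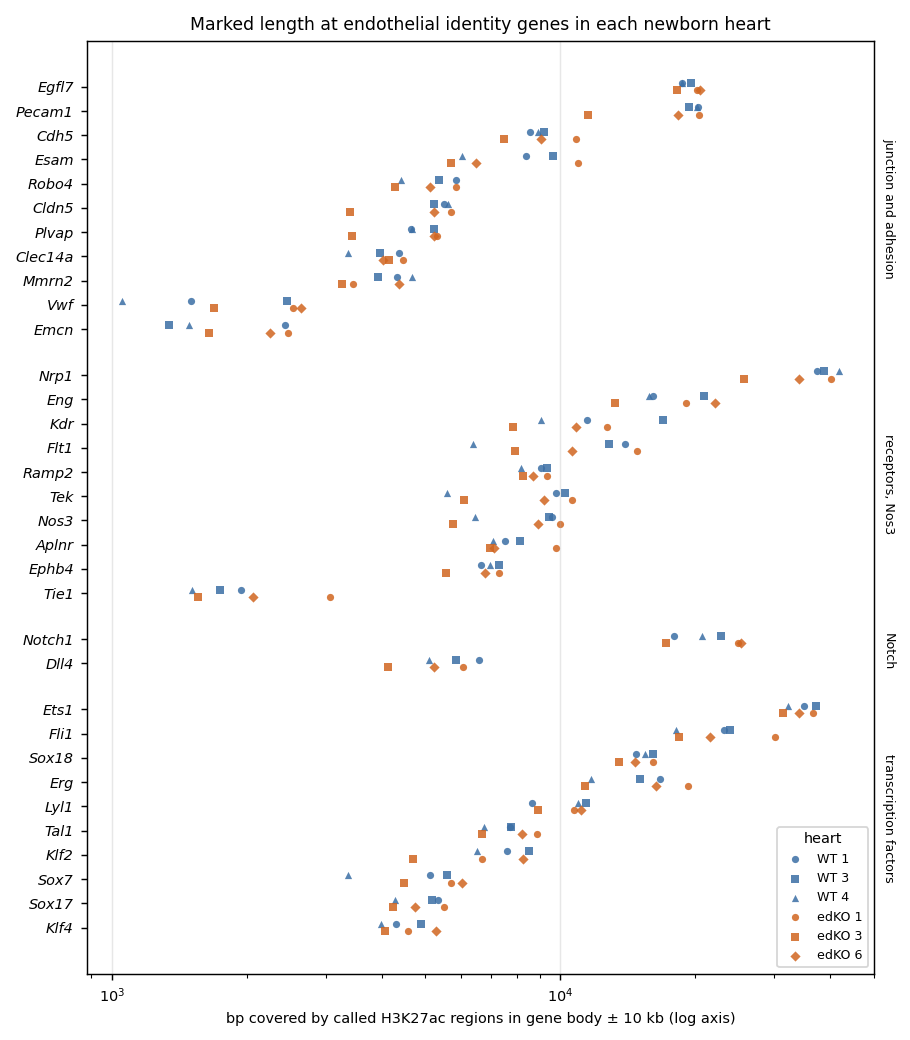
Length covered by called H3K27ac regions (bp, log axis) at each of the 33 endothelial genes, grouped by role, with 1 point per heart (WT blue, edKO orange, symbol by heart number). At no gene do the blue and orange points separate, and edKO 3 is the lowest heart at 22 genes.

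**Figure D2:**
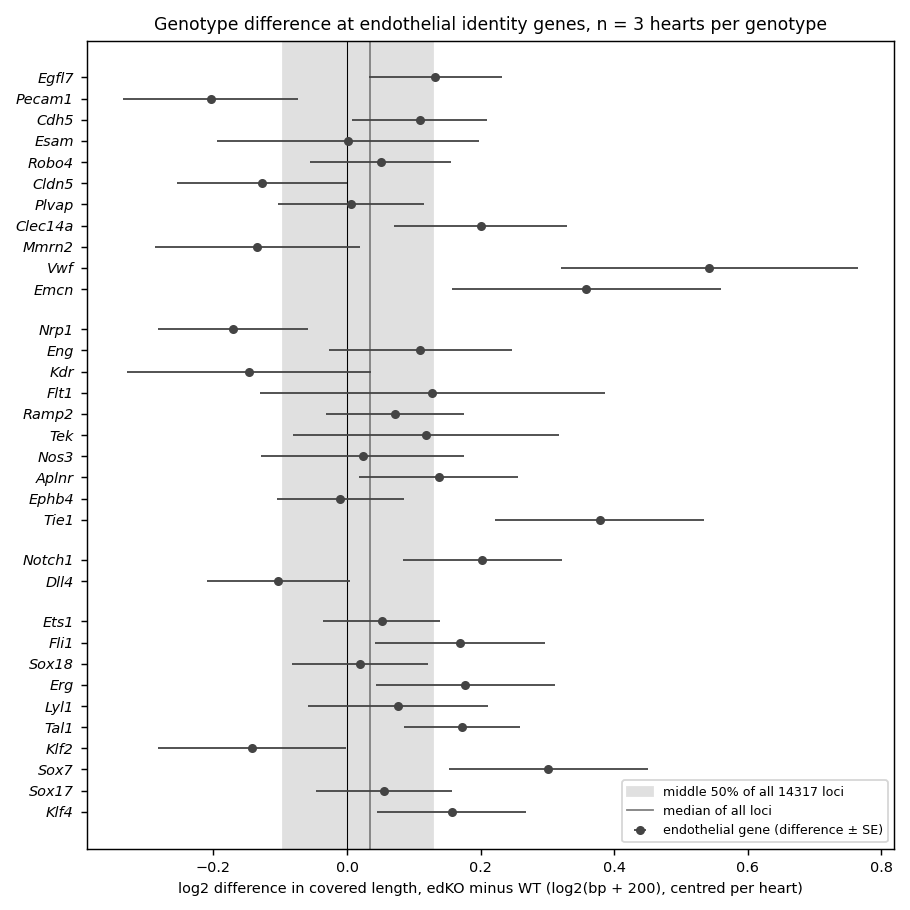
The log2 difference in covered length, edKO minus WT, for each endothelial gene (point) with its standard error (bar), n = 3 hearts per genotype. The grey band spans the quartiles over all 14317 loci, from -0.096 to 0.128, and the grey line its median of 0.03. No gene passed the threshold.

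By covered share the endothelial loci ranked high among tested loci, while the fold of their best peaks lay somewhat below that of the median locus. The share of the window covered by called regions was ranked among all tested loci in each heart. The mean percentile was at least 75 for 26 of the 33 genes and at least 90 for 15, and the median over the genes was 87.7. Cardiomyocyte marker genes had a median of 99.1 over 15 genes and fibroblast markers 55.6 over 10. The authors' fold enrichment of the best peak in each window was ranked among all entries of that heart's list. The median of this percentile over the endothelial genes lay between 86.8 and 90.6 in the 6 lists, against 89.9 to 93.5 over all tested loci. In each of the 6 lists the endothelial median was the lower one. Neither percentile was adjusted for window length. By covered share, Sox18 (window 21804 bp) and Lyl1 (23294 bp) had mean percentiles of 99.9 and 99.1. Vwf (153732 bp) and Erg (247432 bp) had 6.8 and 48.6, though Tie1 (38659 bp) also had only 41.3. The best peaks lay near the top of the lists at the neuropilin gene Nrp1 (97.5 to 99.7) and the ephrin receptor gene Ephb4 (95.0 to 99.5). They ranked far lower at Vwf (58.1 to 76.5) and Mmrn2 (58.5 to 77.1).

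**Figure D3:**
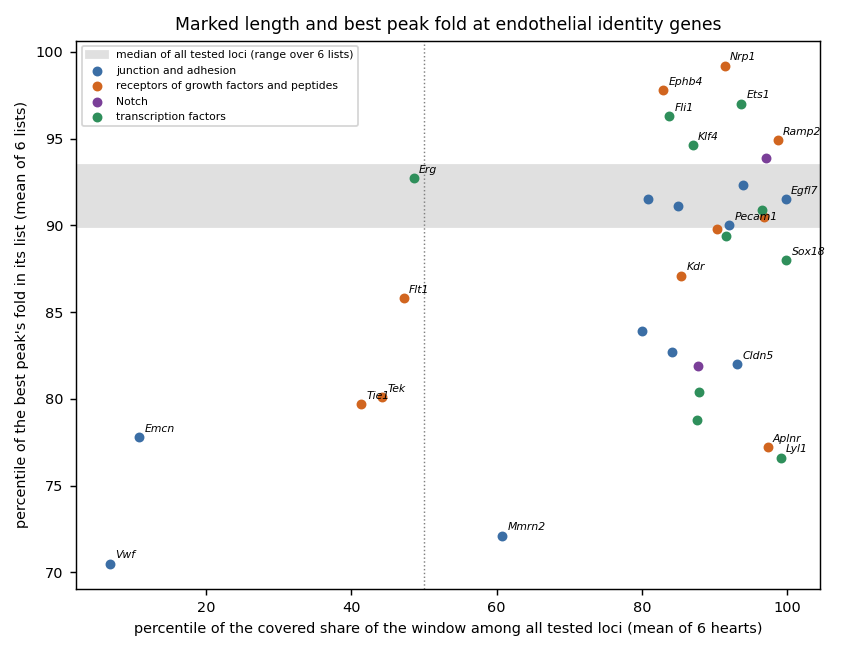
Each point is 1 endothelial gene: its percentile by covered share of the window among all tested loci (mean of 6 hearts, x axis) and the percentile of its best peak's fold within the list (mean of 6 lists, y axis). Most genes lie at the right, while 18 of 33 lie below the grey band, which spans the all-locus medians of 89.9 to 93.5.

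Among junction, adhesion and vessel wall genes, the widest mark lay at Egfl7, which encodes a protein secreted by endothelial cells (chromosome 2, 26581083 to 26592682). Covered length there was 18694, 19567 and 18716 bp in WT hearts and 20215, 18200 and 20523 bp in edKO hearts. These values overlap and cover on average 61.1% of the window, a mean percentile of 99.8. The mark formed a nearly unbroken domain, which began before the window. In the union of the 6 hearts it ran from 26569328 to 26591609, 22282 bp. Its far end there was reached only by a region of 748 bp in edKO 6. Over the first annotated start the domain was 1 region of 19759 bp in WT 1 and 1 of 21077 bp in edKO 1. It was split into more regions in the WT 3, WT 4, edKO 3 and edKO 6 hearts. All 3 annotated starts of Egfl7 were inside called regions in all 6 hearts.

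Egfl7 also hosts miR-126, a microRNA known for its abundance in endothelial cells. Its hairpin (26591357 to 26591429) lies toward the far end of the gene, and only in edKO 6 did a called region, 26590862 to 26591609, cover it. The mature strand in the RefSeq table (GRCm38.p6) is shown because the gene's mark and this microRNA share a locus. Capitals mark the seed, bases 2 to 8.
mmu-miR-126a-3p: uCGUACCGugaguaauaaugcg
The domain covered the starts of the host gene in every heart, and in 5 of 6 no called region reached the hairpin.

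Esam, an endothelial adhesion molecule, had 8383, 9641 and 6045 bp in WT hearts and 10949, 5721 and 6501 bp in edKO hearts. Both genotypes spread widely there and overlapped, and 68.0% of that length was nearest to Esam itself. The tight junction gene Cldn5 had 5507, 5238 and 5615 bp in WT hearts and 5722, 3394 and 5236 bp in edKO hearts, with edKO 3 alone standing low. Pecam1, the platelet endothelial adhesion molecule CD31, had 20318, 19325 and 20237 bp in WT hearts and 20392, 11543 and 18335 bp in edKO hearts. At Pecam1 edKO 3 and edKO 6 were below all WT hearts and edKO 1 was above them, with a log2 difference of -0.20 (SE 0.13, limma adjusted p = 0.854), the lowest of the 33. Without edKO 3 the Pecam1 difference was -0.078, and within 5 kb of the gene ends it was 0.081. VE-cadherin, encoded by Cdh5, holds endothelial cells together at adherens junctions. Cdh5 ranged from 7501 to 10839 bp over the 6 hearts, with a log2 difference of 0.11 (SE 0.10).

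Vwf and Emcn were the least marked of the list for their length. Vwf encodes von Willebrand factor, and its window is long. Its covered length was 1503, 2461 and 1057 bp in WT hearts and 2534, 1691 and 2648 bp in edKO hearts, 1.29% of the window on average. WT 3 lay within the edKO values, so the genotypes overlapped, and the log2 difference of 0.54 (SE 0.22) had a limma adjusted p of 0.735. Emcn, the sialomucin endomucin of venous and capillary endothelium, had 2433, 1342 and 1488 bp in WT hearts and 2468, 1647 and 2252 bp in edKO hearts. A region at its annotated start, called in all 6 hearts, made up its mark in 4 of them. Mmrn2, a matrix protein of vessels, had 4336, 3930 and 4677 bp in WT hearts and 3454, 3260 and 4373 bp in edKO hearts. The difference at Mmrn2 was -0.13 (SE 0.15). Robo4, Plvap and Clec14a, which encode a guidance receptor, a protein of fenestral diaphragms and a C-type lectin, covered between 3362 and 5859 bp in every heart. At Plvap only 17.6% of the marked length was nearest to Plvap, with Gtpbp3, Gm46041 and Ccdc194 also reaching into its window, so most of that length lay nearer to other genes.

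Among receptor genes, Nrp1, a co-receptor of VEGF, had the most marked length of all 33, at 37321, 38776 and 41742 bp in WT hearts and 40222, 25731 and 34136 bp in edKO hearts. The edKO 3 and edKO 6 hearts were below all WT hearts and edKO 1 was not, and the log2 difference was -0.17 (SE 0.11, limma adjusted p = 0.854). For its length, Ramp2 was the most marked receptor gene, with 40.2% of the window covered. Ramp2 encodes the accessory protein of the adrenomedullin receptor, and it had 9048, 9332 and 8184 bp in WT hearts and 9341, 8269 and 8687 bp in edKO hearts. Its window also holds Vps25, and 57.7% of the length was nearest to Ramp2. Length nearest to the gene itself averaged 5082.0 bp of a 21917 bp window at Ramp2 and 7772.3 bp of 23564 bp at Aplnr. The rank of Ramp2 thus depends on length nearer to another gene. Aplnr, the apelin receptor gene, had 7536, 8143 and 7090 bp in WT hearts and 9775, 6987 and 7103 bp in edKO hearts. Only edKO 1 stood above the WT hearts there. Eng, encoding endoglin, a co-receptor of BMP9, had 16072, 20932 and 15797 bp in WT hearts and 19092, 13221 and 22136 bp in edKO hearts. Endoglin values spread as widely within each genotype as between them.

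The VEGF receptor genes Kdr and Flt1 varied among hearts of the same genotype. Kdr, the main signalling receptor, had 11499, 16933 and 9073 bp in WT hearts and 12726, 7830 and 10844 bp in edKO hearts. Flt1, the decoy receptor, had 13952, 12818 and 6382 bp in WT hearts and 14838, 7916 and 10644 bp in edKO hearts. Neither differed beyond that spread, with log2 differences of -0.15 (SE 0.18) at Kdr and 0.13 (SE 0.26) at Flt1. The sign turned at Kdr without WT 3 (0.053) and within 5 kb of the gene ends (0.003). At Flt1 it turned without WT 4 (-0.167), without edKO 1 (-0.018) and with a replicate block (-0.119). The block fit takes its genotype estimate from hearts 1 and 3 of each genotype alone. The region at the Kdr start was called in all hearts. It spanned 4464, 4702 and 4524 bp in WT hearts and 4648, 3299 and 3427 bp in edKO hearts. In edKO 3 and edKO 6 a short gap split the call there. Over the merged region at the start, covered length was 4834, 4702 and 4524 bp in WT hearts and 5065, 4334 and 4380 bp in edKO hearts. Most of the spread between hearts lay in shorter regions further on.

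The angiopoietin receptor gene Tek and its relative Tie1 had 5.52% and 5.13% of their windows covered. Tie1 had 1944, 1742 and 1510 bp in WT hearts and 3073, 1560 and 2070 bp in edKO hearts, with edKO 3 inside the WT range. On the centred log2 scale its edKO values of 11.56, 11.07 and 11.11 lay above the highest WT value, 10.999. The difference of 0.38 at Tie1 (SE 0.16) had a limma adjusted p of 0.736. With regions kept only at a −log10 q of at least 5, the Tie1 difference was -0.083. Ephb4, a marker of venous endothelium, had a log2 difference of -0.01 (SE 0.10), and Nos3, the endothelial nitric oxide synthase, 0.02 (SE 0.15). At Nos3, 43.8% of the length was nearest to Nos3, since Atg9b and Abcb8 lie in its window.

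Notch1, a receptor that sets arterial fate and valve formation, had 17914, 22851 and 20745 bp in WT hearts and 24903, 17246 and 25266 bp in edKO hearts. The edKO hearts held both the lowest and the highest of the 6 values, and the difference was 0.20 (SE 0.12, limma adjusted p = 0.841). Its ligand gene Dll4 had 6603, 5861 and 5095 bp in WT hearts and 6067, 4137 and 5223 bp in edKO hearts. Dll4 had a difference of -0.10 (SE 0.11), again with overlapping hearts.

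Among transcription factor genes, 9 of 10 had estimates above 0 (5 of 10 with no centring), where 58.4% of all loci did, and none passed. Sox18, a SOX F factor of vessel and lymphatic development, had the largest share of its window covered of all 33 genes, 69.3%. It had 14736, 16116 and 15476 bp in WT hearts and 16127, 13531 and 14658 bp in edKO hearts. Of that length, 52.9% was nearest to Sox18. The log2 difference at Sox18 was 0.02 (SE 0.10), and 0.492 when a region counted only toward the gene nearest to it. Over all alternatives its smallest limma adjusted p was 0.7644. Length nearest to the gene itself averaged 7988.0 bp of a 21804 bp window at Sox18 and 19280.8 bp of 31600 bp at Egfl7. Lyl1, a helix-loop-helix factor shared with blood cells, had 8657, 11433 and 10980 bp in WT hearts and 10739, 8922 and 11121 bp in edKO hearts, and 35.7% of it was nearest to Lyl1, with Trmt1 and Nfix in the window. Klf2, a factor that responds to blood flow, had 7614, 8535 and 6516 bp in WT hearts and 6682, 4701 and 8258 bp in edKO hearts. The ETS factor gene Ets1 had 34888, 37258 and 32273 bp in WT hearts and 36567, 31385 and 34052 bp in edKO hearts. Its neighbour Fli1, another ETS gene, covered 18152 to 30171 bp over the 6 hearts.

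Sox7, another SOX F factor, had 5137, 5586 and 3366 bp in WT hearts and 5708, 4477 and 6044 bp in edKO hearts. Its difference was 0.30 (SE 0.15, limma adjusted p = 0.799), with WT 4 the low heart. Tal1, a helix-loop-helix factor of endothelium and blood, had 7714, 7779 and 6780 bp in WT hearts and 8872, 6691 and 8239 bp in edKO hearts. After centring, Tal1 stood at 12.88, 12.84 and 12.83 in WT and 13.03, 13.04 and 13.01 in edKO, a difference of 0.17 (SE 0.09, limma adjusted p = 0.80). Sox17 and Klf4 had differences of 0.06 (SE 0.10) and 0.16 (SE 0.11).

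Erg, the ETS factor most closely tied to endothelial identity, had no called region over the earlier part of its gene in any of the 6 hearts. Its covered length was 16726, 15062 and 11707 bp in WT hearts and 19237, 11355 and 16356 bp in edKO hearts. The first called region lay between 125.6 and 126.6 kb from the first annotated start in every heart. Over the first 122.3 kb of the gene and the flank before it, 0 bp were called in each heart. Of the 3 annotated starts of Erg, starts 1 and 2 were covered in 0 of 6 hearts and start 3 in 6 of 6. Erg was singled out after these values were seen.

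The 250 bases before each Erg start are shown because the gene has starts with and without the mark, followed by those of Kdr and Cldn5, whose starts were covered in all hearts. Sequences are from RefSeq (GRCm38.p6) and read 5′ to 3′ on the gene's strand. Capitals mark GGAAG or its reverse complement CTTCC, a short form of the ETS site.
Erg start 1, chr16:95586594-95586843, minus strand: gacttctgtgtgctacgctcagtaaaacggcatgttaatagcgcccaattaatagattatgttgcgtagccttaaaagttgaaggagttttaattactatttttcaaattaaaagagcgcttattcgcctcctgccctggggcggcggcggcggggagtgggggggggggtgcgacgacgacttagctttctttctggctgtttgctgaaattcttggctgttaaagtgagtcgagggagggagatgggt
Erg start 2, chr16:95530366-95530615, minus strand: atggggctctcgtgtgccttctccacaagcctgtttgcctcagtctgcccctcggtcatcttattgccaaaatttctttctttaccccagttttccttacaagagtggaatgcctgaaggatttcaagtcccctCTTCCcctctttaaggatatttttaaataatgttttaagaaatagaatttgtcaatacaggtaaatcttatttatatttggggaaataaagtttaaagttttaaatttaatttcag
Erg start 3, chr16:95459349-95459598, minus strand: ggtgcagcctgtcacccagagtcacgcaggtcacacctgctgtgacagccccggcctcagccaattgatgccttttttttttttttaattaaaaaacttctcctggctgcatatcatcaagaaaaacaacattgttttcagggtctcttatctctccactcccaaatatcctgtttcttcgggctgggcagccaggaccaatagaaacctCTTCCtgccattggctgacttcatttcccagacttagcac
Kdr, chr5:75978456-75978705, minus strand: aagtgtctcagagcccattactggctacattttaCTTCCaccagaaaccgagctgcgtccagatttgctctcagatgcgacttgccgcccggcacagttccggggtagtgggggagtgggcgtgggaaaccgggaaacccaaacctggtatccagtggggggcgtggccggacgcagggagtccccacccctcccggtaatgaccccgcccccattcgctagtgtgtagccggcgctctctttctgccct
Cldn5, chr16:18776597-18776846, plus strand: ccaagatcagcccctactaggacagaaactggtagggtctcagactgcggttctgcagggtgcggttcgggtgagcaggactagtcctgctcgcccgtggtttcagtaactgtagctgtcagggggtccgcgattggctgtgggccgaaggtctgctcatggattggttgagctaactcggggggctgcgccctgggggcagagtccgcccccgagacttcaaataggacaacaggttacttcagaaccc
The stretch before Erg start 1 held 0 matches, and those before starts 2 and 3 held 1 each. The Kdr stretch held 1 and the Cldn5 stretch 0.

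**Figure D4:**
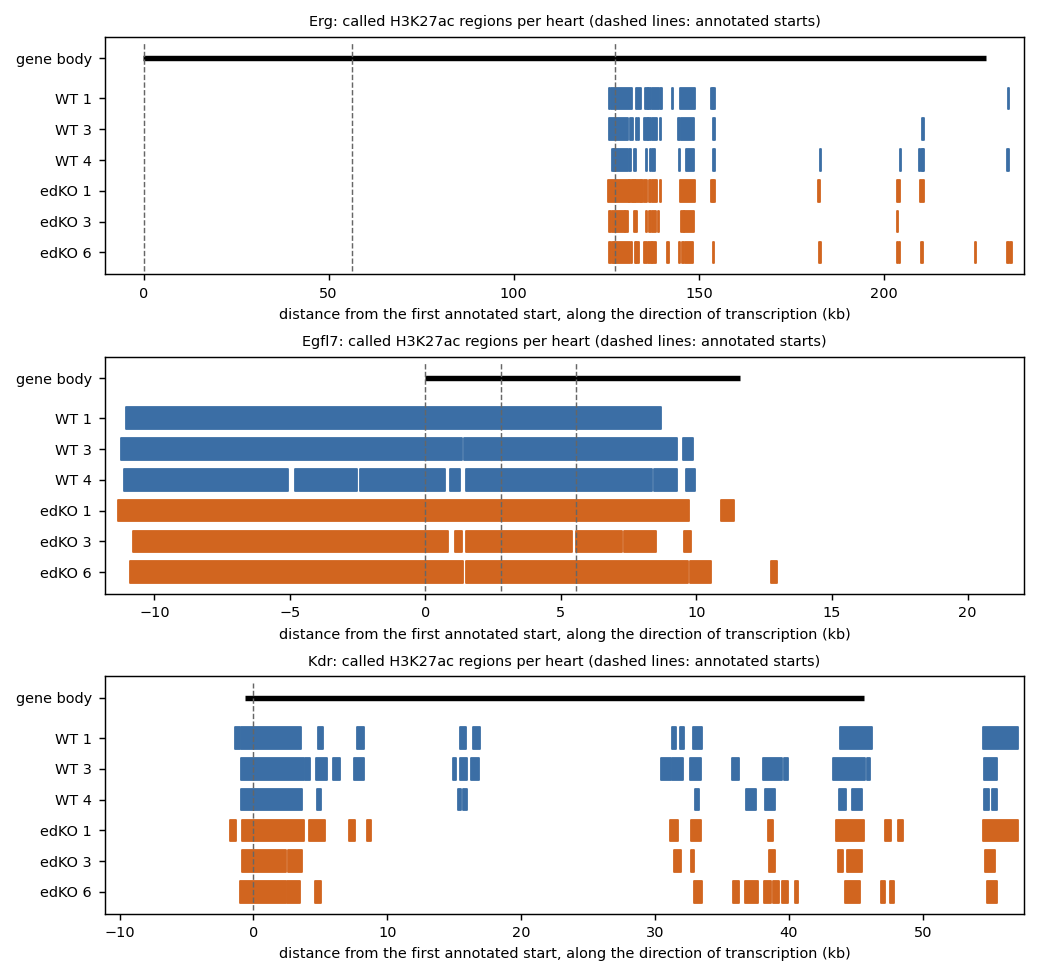
Called H3K27ac regions (bars) at Erg, Egfl7 and Kdr in each heart (WT blue, edKO orange), against distance in kb from the first annotated start along the direction of transcription. The black line is the gene body and dashed lines are annotated starts. At Erg no region lies before 125.6 kb in any heart, and at Egfl7 the mark spans all 3 starts.

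The promoter table held 24 annotated starts of 19 of the 33 genes, and gave no entry for Pecam1, Cdh5, Esam, Mmrn2, Plvap, Vwf, Aplnr, Ramp2, Nos3, Fli1, Ets1, Sox7, Sox17 and Sox18. Of the 24 starts, 20 were inside a called region in all 6 hearts, and 17 genes had such a start. Between 21 and 22 of the 24 were covered in each heart, where 48.0% to 52.5% of 21263 starts of all protein-coding genes were. Besides Erg starts 1 and 2, the exceptions were Tie1, covered in 4 hearts (not WT 4 or edKO 6), and Dll4, covered in 5 (not WT 3).

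Short motifs in the 250 bases before these starts were counted on both strands. GGAAG was found in 17 of 24 (70.8%, against 65.1% of 21263) and the longer AGGAAG, which contains it, in 9 (37.5%, against 28.5%). CCGGAA, the ETS form of many housekeeping promoters, was found in 2 (8.33%, against 15.0%). The Kruppel-like motif CACCC was found in 17 (70.8%, against 54.2%), GATAA in 3 (12.5%, against 20.5%) and the SOX form ACAATG in 1 (4.17%, against 9.35%). CACGTG was found in 1 (4.17%, against 6.63%) and TATAAA in 2 (8.33%, against 11.6%). Median GC content was 60.2% before the endothelial starts and 55.6% before all starts. Several starts of a gene count separately here, and a match is a description of the letters.

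Regions of the 6 lists were merged where they overlapped by at least 1 bp, giving 314 regions at the endothelial loci among 79293 in all. At the endothelial loci, 120 (38.2%) were called in all 6 hearts, against 35.8% of all regions. Of 51 regions within 1 kb of a gene end, 38 (74.5%) were called in all 6 hearts. This held for 55 of 198 regions inside genes (27.8%) and 27 of 65 in the flanks (41.5%). The merged regions also differed in width, with medians of 3143 bp at gene ends, 716 bp inside genes and 630 bp in the flanks. A wider region is more easily met by a call in each heart, and the part of width in these shares was not tested. Regions at gene ends made up 42.7% to 49.0% of the marked length in each heart, regions inside genes 36.3% to 41.8% and flanking regions 14.6% to 15.6%. The highest share at gene ends and the lowest inside genes were both in edKO 3.

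At the endothelial loci, 2 regions were called in all WT hearts and no edKO heart (0.637%, against 1.08% of all regions), and 1 in all edKO hearts and no WT heart (0.318%, against 0.0719%). At equal list length these shares were 0.398% against 0.53% for WT and 0.398% against 0.367% for edKO. Single regions were not tested. All 3 regions lay inside genes and ranked in the lower or middle part of their lists by the authors' fold. Merged over the hearts they spanned 728 bp in Kdr, 564 bp in Ets1 and 1133 bp in Flt1. The median of the merged regions inside genes was 716 bp. The region inside Kdr (chromosome 5, 75962475 to 75963202, 15.3 kb from the start) covered 449, 558 and 540 bp in WT hearts. It ranked at percentiles 15.7, 58.7 and 43.8 of their lists. The region inside Ets1 (chromosome 9, 32713460 to 32714023) covered 304, 329 and 226 bp in WT hearts, at percentiles 21.0, 21.1 and 1.1. The edKO region inside Flt1 (chromosome 5, 147671413 to 147672545) covered 1017, 249 and 532 bp, at percentiles 42.2, 1.2 and 44.5.

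The share of a heart's called length that lay at endothelial loci did not overlap between genotypes, while the centred level did. Summed over the 33 windows, called regions covered 360885, 385427 and 327325 bp in WT hearts and 404345, 282979 and 364676 bp in edKO hearts, which overlap. As a share of all called bp of the heart this was 0.536%, 0.565% and 0.554% in WT and 0.607%, 0.591% and 0.582% in edKO. The mean length per region at these loci was 1275.2, 1293.4 and 1004.1 bp in WT hearts and 1713.3, 1145.7 and 1050.9 bp in edKO hearts. On the centred log2 scale the mean over the 33 genes was 13.01, 13.02 and 12.92 in WT and 13.12, 13.02 and 13.06 in edKO, with edKO 3 inside the WT range. By role, the shares of the transcription factor genes (0.191% to 0.199% in WT, 0.208% to 0.225% in edKO) and of the 2 Notch genes did not overlap, and those of the junction and receptor genes did. The role groups are parts of the same sum. The share also moves with how much was called elsewhere, and no test was made of it. How often it would separate the genotypes over other lists of like size was not counted. The lists compared with it here hold fewer genes. The shares of the 5 lists of related endothelial and signalling genes described next overlapped between the genotypes, in some only narrowly. Related transcription factors had 0.2569%, 0.2786% and 0.2563% in WT and 0.2778%, 0.2851% and 0.2811% in edKO, overlapping only through WT 3. BMP and TGF-beta genes had 0.1674%, 0.1926% and 0.2067% in WT and 0.1906%, 0.2195% and 0.2193% in edKO, overlapping only through edKO 1. The shares of cardiomyocyte markers (0.407% to 0.460% in WT, 0.409% to 0.454% in edKO) and of fibroblast markers (0.0465% to 0.0909%, and 0.0636% to 0.0905%) overlapped between the genotypes.

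**Figure D5:**
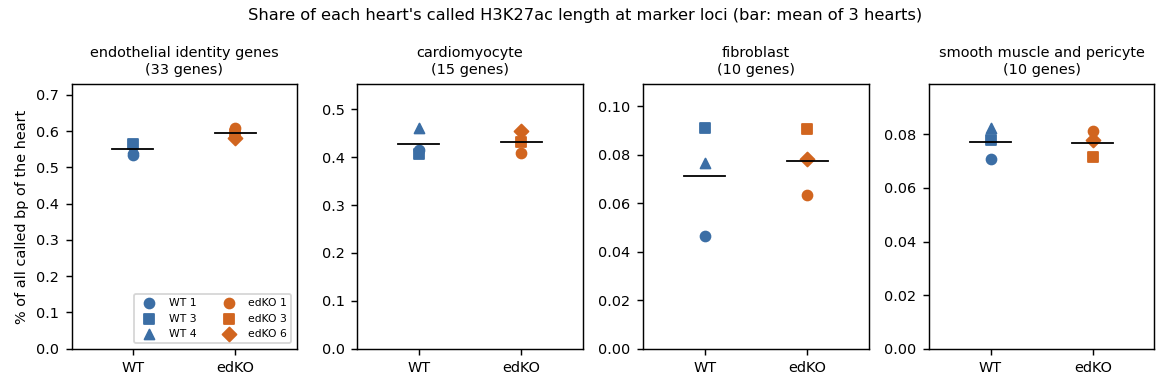
Share of each heart's called H3K27ac length (percent, axes from 0) that lay at the loci of 4 marker lists, 1 point per heart, with a bar at the mean of 3 hearts. The endothelial points of edKO hearts (0.582 to 0.607) lie above those of WT hearts (0.536 to 0.565), and the other 3 lists overlap. The lists differ in gene number, and no test was made of the shares.

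Genes that act with the endothelial list were not called either. Of 9 tested ligand genes (VEGF, angiopoietin and apelin families, adrenomedullin and its receptor), 0 passed, with a median log2 difference of 0.01. The lowest p values were at the angiopoietin genes Angpt2 (log2 difference -0.71, SE 0.25, limma adjusted p = 0.626) and Angpt1 (-0.56, SE 0.22, limma adjusted p = 0.696). Angpt1, which encodes an agonist of Tek, had 6689, 4519 and 3833 bp in WT hearts and 3665, 1966 and 3847 bp in edKO hearts. The edKO 6 value lay just above that of WT 4, and the other edKO values were below all WT hearts.

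Of 14 Notch pathway partners 0 passed (median -0.02). Efnb2, the arterial ephrin, had 3551, 3858 and 4447 bp in WT hearts and 5721, 3841 and 5831 bp in edKO hearts (log2 difference 0.43, SE 0.14, limma adjusted p = 0.57). The Notch ligand gene Dll1 had a difference of -0.34 (SE 0.22). Of 15 tested genes of BMP and TGF-beta signalling 0 passed (median 0.13, 12 above 0), with Smad5 at 0.28 (SE 0.11) and Tgfbr1 at 0.37 (SE 0.21). Of 16 transcription factors related to those of the list 0 passed (median 0.08), with Hhex at 0.28 (SE 0.13) and Nr2f2, a factor of venous identity, at 0.31 (SE 0.22).

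Of 19 tested markers of capillary, endocardial and lymphatic endothelium 0 passed (median 0.06). The 2 with the smallest p were lower in estimate. Cd36, a fatty acid transporter of capillary endothelium that cardiomyocytes also express, had 32342, 32889 and 25392 bp in WT hearts and 28817, 17995 and 16662 bp in edKO hearts (log2 difference -0.46, SE 0.17, limma adjusted p = 0.693). Gja5, a connexin of arteries and of the conduction system, had 5574, 6821 and 5240 bp in WT hearts and 4923, 4023 and 4641 bp in edKO hearts. These did not overlap, edKO being the lower (-0.27, SE 0.11, limma adjusted p = 0.696). That order in bp was met at 2 of the 19 genes, Gja5 and Rgcc, and at 6.5% of all loci.

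Markers of other cell types were read beside the endothelial genes. No marker passed in the lists of cardiomyocyte (15 tested, median -0.07), fibroblast (10 tested, 0.18), smooth muscle and pericyte (10 tested, 0.08) or epicardial genes (6 tested, -0.19). The lists of leukocyte genes (2 of 10 tested, median 0.05) and of erythroid and megakaryocyte genes (4 of 10 tested, 0.02) gave no call either. Of the 10 leukocyte genes, between 4 and 8 had 0 bp in a heart, and of the 10 erythroid and megakaryocyte genes between 4 and 6. Summed length was 5852 to 8358 bp in WT hearts and 5262 to 6410 bp in edKO hearts for leukocyte genes. It was 8390 to 11343 bp in WT hearts and 6611 to 11163 bp in edKO hearts for erythroid and megakaryocyte genes. The part of blood cells in the mark at Tal1, Lyl1, Fli1 and Erg, which such cells also use, was not tested.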

How the data were processed

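H3K27ac ChIP-seq of 6 hearts gave 1 narrowPeak list per heart. Nothing from the 6 input samples was analysed here. Peaks were called per heart, and cutadapt, BWA, SAMtools and MACS2 are named in the submitters' processing notes without versions, with the builds mm10 and GRCm38. Caller settings, and whether inputs served as background, were not stated there. The deposited columns hold a score, the fold enrichment of each summit (a ratio to background) and its −log10 p-value and −log10 q-value, all the authors' own. Folds were ranked within a list only, and they describe peaks.

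The members and lists were chosen with earlier results of these data known. Entries were merged into regions, and covered bp were summed per locus (RefSeq, GRCm38.p6). Values were log2(bp + 200), centred per heart on the mean over loci covered in all 6 hearts, and loci under a mean of 500 bp were left out. Genotype was the only term of a fit with trend and robust variance moderation in limma 3.58.1 (R 4.3.3), with Benjamini-Hochberg adjustment over all loci at 0.05. The fit was tested on simulated data, with changes larger in size than any difference at the endothelial genes. How often it would call changes as small as those was not simulated. Fold changes on this scale understate changes at little-marked loci. Depth per heart is unknown and no counting interval is given. Regions were joined in Python 3.11.15 with pandas 2.3.3 and numpy 2.4.6, and plots were drawn with matplotlib 3.10.9.

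All members may be named. Values per heart are given for the members with the largest covered share in each role group, the 5 smallest unadjusted p, the 4 lowest covered lengths and, chosen after their values were seen, Kdr, Flt1 and Erg. Of the other lists, the 2 genes with the smallest unadjusted p are named where they bear on endothelium. The alternatives vary the pseudocount, filter, window, list threshold and length, centring, block, a covariate for a called region at Xist, and the hearts left out. A RefSeq genome sequence was not used.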

Additional observations from a re-analysis of the deposited data

How the results depend on the processing

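No endothelial gene was called in either direction in any of the 20 alternatives, and the smallest limma adjusted p among them was 0.331, for Vwf without WT 3. The median log2 difference of the endothelial genes was -0.009 with no centring, where the median of all loci was -0.052, and 0.130 with quantile normalization. In the other alternatives it lay between 0.053 and 0.128, in each above the median of all loci. Signs of single genes changed most with no centring (9 of 33). Without a single heart the median ran from 0.053 to 0.103.

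Over all loci, 15 were lower in edKO with the settings used, against 31 with the gene body plus 50 kb, 9 with stricter lists (−log10 q of at least 5), 6 at equal list length, 6 when a region counted only toward the gene nearest to it (with 2 higher) and 3 with a covariate for a marked Xist gene. Without a single heart the lower count ran from 0 to 9 and the higher from 0 to 1. With a replicate block on the heart number the lower count was 90, with 0 endothelial genes. In that fit WT 4 and edKO 6 each stand alone in a block. Its genotype estimates therefore rest on hearts 1 and 3 of each genotype, and the 90 is not a like count. The numbers 1 and 3 are shared by a WT and an edKO heart, but their deviations from the genotype means correlated at 0.179 and 0.032 across loci, and nothing in the labels pairs them. The cause of these shifts was not tested.

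The count of endothelial regions called in WT hearts only, 2, was 1 with stricter lists and 1 at equal list length, and ran from 2 to 7 without a single heart. The count called in edKO hearts only, 1, was 0 with stricter lists and 0 where a heart had to cover 50% of the merged region, an alternative chosen after seeing the data, and ran from 1 to 6. Fewer hearts make such a pattern easier to meet. The planned rule on 50% of the shorter region changes nothing by construction.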
